A study of Mus musculus with 40 samples.

Results

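Complement transcripts were followed in CD11b+ cells sorted from mouse brains, as a set of 9 genes: C1qa, C1qb and C1qc, which encode the chains of C1q; C4b, C3, Cfb and Cfp, which encode further components of the cascade; and the receptor genes C3ar1 and C5ar1. They were picked by symbol among the 54513 rows of each of 3 deposited tables, and all 9 were found in each. CD11b marks the myeloid cells of the brain, mainly microglia and infiltrating monocytes/macrophages.

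In the first experiment, GL261 cells, a murine glioma line, were implanted in the striatum of C57BL/6 mice, and cells were sorted at 21 days post-implantation (DPI). Water as vehicle, the integrin-binding peptide 7aaRGD or the control peptide 7aaRAE reached the tumor through an osmotic pump, and naïve mice had no tumor. Each of the 4 groups had 3 samples, every one a pool of 2 animals. In the second, at 28 DPI and with 1 animal per sample, there were 4 samples with vehicle, 4 with 7aaRGD, 3 with an anti-PD-1 antibody and 3 with 7aaRGD and anti-PD-1 together (the combination). GEO's labels give nude mice for these samples and the study's methods give C57BL/6 mice with GL261, so they are called the 28 DPI experiment here. The paper adds that 7aaRGD with checkpoint inhibitors such as anti-PD-1 could not be tested for synergy in immunodeficient mice. In the third, U87-MG cells, a human glioma line, grew in athymic nude mice, which lack T cells, under vehicle, 7aaRGD or 7aaRAE (3 samples each, pools of 2 animals, 21 DPI). Control groups of the antibody received IgG. Of the labelled samples, 5 were not analysed here: 1 under anti-PD-1, 1 under the combination and 3 of nude mice without a tumor. Mice of all experiments were male and 10 to 12 weeks old. Both gliomas come from a cultured line, so each stands for 1 tumor genotype. Nothing in the labels ties samples to separate cultures or sorting days, so p-values measure the spread between these samples as deposited.

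Complement is a cascade of proteins that tags cells and debris for removal. C1q starts the classical pathway and leads through C4 to the cleavage of C3, while factor B (Cfb) and properdin (Cfp) drive and stabilize the alternative pathway, which amplifies C3 cleavage. The small fragments released act on the receptors C3ar1 and C5ar1 of myeloid cells, and in the brain microglia are a main source of C1q.

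Levels are given as RPKM, which scales reads by transcript length and library size, so that genes can be compared per length. The tables hold no read counts, so sequencing depth is unknown and no counting interval could be given. Between 9323 and 9815 protein-coding genes reached 1 RPKM in a sample. Itgam, which encodes CD11b, was between 51.2 and 195 RPKM in every sample, and the summed level of 6 T cell genes was between 0.208 and 11.2 RPKM. In bulk samples such as these, fewer cells of a type and less RNA per cell cannot be told apart. Differences are on the log2(RPKM + 1) scale, which understates changes of genes near 0. They were tested with limma over all expressed protein-coding genes, and a gene was called where the Benjamini-Hochberg adjusted p was under 0.05.

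C1qa, C1qb and C1qc lie side by side on chromosome 4 of mm10, at chr4:136895917-136898803, chr4:136880129-136886187 and chr4:136889804-136893065, all on the minus strand. C3 (chr17:57203970-57228136), Cfb (chr17:34856374-34862518) and C4b (chr17:34728380-34743882) are on chromosome 17. C3ar1 is at chr6:122847138-122856161, C5ar1 at chr7:16246743-16259540 and Cfp at chrX:20925454-20931555. RefSeq promoter windows, running from 250 bases before the start of the gene to 50 after it on GRCm38.p6, were at hand for 6 of the 9 genes. Those of C1qb and C1qc are shown because these genes changed together, and those of C3 and Cfp because they changed the other way. All are written 5′ to 3′ on the minus strand. Capitals mark matches on either strand to GAGGAA, the core recognised by the myeloid factor PU.1, or to the interferon-linked patterns GAAANNGAA and TTCNNNGAA.
C1qb (chr4:136886151-136886450): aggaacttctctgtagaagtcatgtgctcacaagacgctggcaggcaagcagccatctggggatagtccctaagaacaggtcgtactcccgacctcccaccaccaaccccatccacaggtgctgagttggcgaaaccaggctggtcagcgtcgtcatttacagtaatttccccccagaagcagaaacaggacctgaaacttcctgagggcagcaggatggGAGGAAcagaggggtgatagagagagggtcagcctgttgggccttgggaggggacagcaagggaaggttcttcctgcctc
C1qc (chr4:136892865-136893164): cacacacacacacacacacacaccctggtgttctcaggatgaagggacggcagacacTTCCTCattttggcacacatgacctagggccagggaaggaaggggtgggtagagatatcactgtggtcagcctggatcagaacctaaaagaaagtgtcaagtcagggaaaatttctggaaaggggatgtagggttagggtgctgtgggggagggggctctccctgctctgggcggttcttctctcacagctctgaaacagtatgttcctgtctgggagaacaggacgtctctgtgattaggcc
C3 (chr17:57228087-57228386): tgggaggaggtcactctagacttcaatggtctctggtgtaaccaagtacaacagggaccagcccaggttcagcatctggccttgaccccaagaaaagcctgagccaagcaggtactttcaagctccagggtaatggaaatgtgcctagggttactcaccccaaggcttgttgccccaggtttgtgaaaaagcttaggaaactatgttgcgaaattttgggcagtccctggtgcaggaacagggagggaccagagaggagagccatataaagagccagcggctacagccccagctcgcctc
Cfp (chrX:20931506-20931805): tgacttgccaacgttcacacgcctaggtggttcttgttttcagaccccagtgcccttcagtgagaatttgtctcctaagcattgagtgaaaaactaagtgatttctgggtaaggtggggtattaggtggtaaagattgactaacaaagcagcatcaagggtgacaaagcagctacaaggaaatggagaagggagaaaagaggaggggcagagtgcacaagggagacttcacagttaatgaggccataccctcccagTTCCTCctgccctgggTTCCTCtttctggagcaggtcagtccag

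GAGGAA matched once in the C1qb window, once in that of C1qc and 2 times in that of Cfp, and not in those of C3, C3ar1 and C5ar1. Of 32851 promoters, 28.3% held it. GAAANNGAA, in 8.56% of promoters, matched once in the C5ar1 window, and TTCNNNGAA, in 8.30%, in none of the 6. A match describes letters only.

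The C1q genes stood far above the rest of the set in every table. Over the 9 tumor-bearing samples of the GL261 experiment at 21 DPI, C1qa averaged 2586 RPKM (rank 10 among protein-coding genes), C1qb 2064 and C1qc 1237. They were followed by C3 at 483 RPKM. Cfp, C3ar1 and C4b (109, 102 and 86.6 RPKM) came next with overlapping sample ranges, and Cfb and C5ar1, whose ranges overlapped too, were last at 56.3 and 50.9. At 28 DPI the C1q genes averaged 4634, 3940.1 and 2288 RPKM and C3 404, while Cfb was lowest at 27.3. C4b (166), C3ar1 (118), Cfp (86.2) and C5ar1 (60.6) lay between them, with ranges that overlapped. These means pool treatments, and the order was not the same in each group: Cfp averaged 50.3 RPKM with vehicle, next to 52.7 for C5ar1, and 159 with the combination, next to 117 for C3ar1. In U87-MG-bearing nude mice C1qa averaged 7087 RPKM (rank 3), C1qb 3987 and C1qc 2861, whereas C3 (20.9), Cfp (15.6) and Cfb (1.41) were the 3 lowest members, below C3ar1 (119.9), C4b (83.8) and C5ar1 (57.7). The tables were normalized separately, so levels are set side by side across them without a test.

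**Figure D1:**
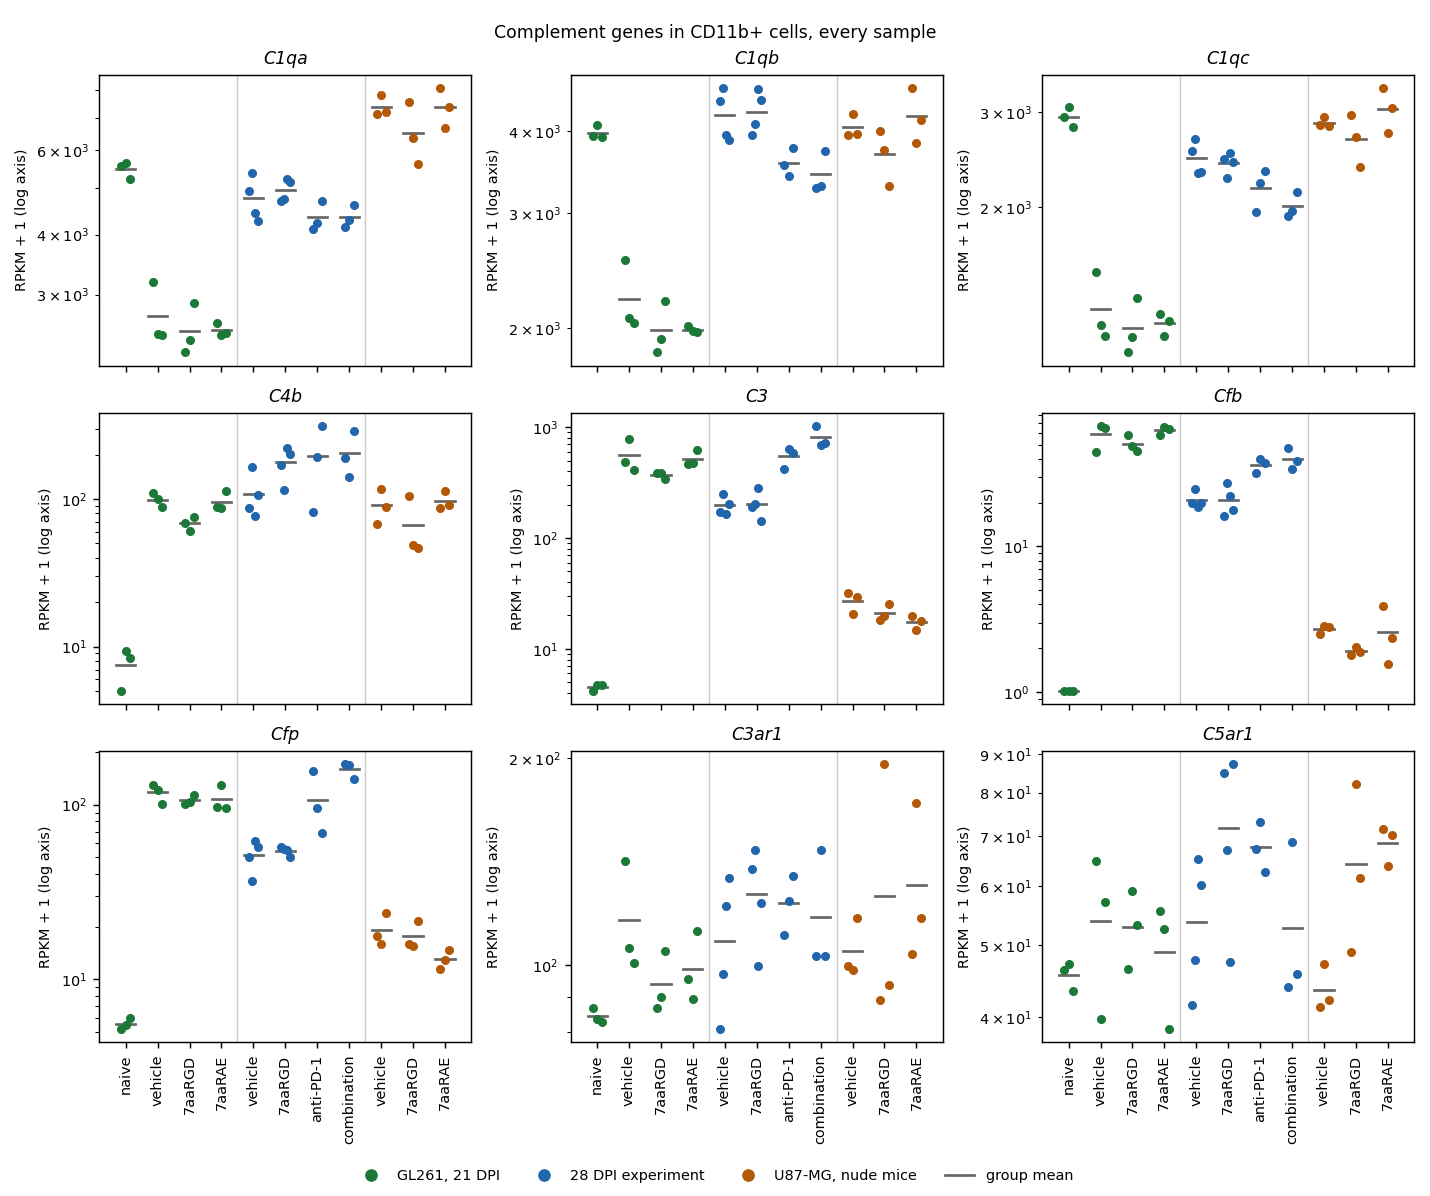
RPKM + 1 on a log axis of the 9 complement genes in every sample (points) with the group mean (line), for GL261 at 21 DPI, the 28 DPI experiment and U87-MG in nude mice. C3, Cfb, Cfp and C4b of naïve mice sit below every tumor-bearing GL261 sample, whereas the C1q genes of naïve mice sit above, and C3, Cfb and Cfp are low in U87-MG-bearing mice.

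Tumor-bearing against naïve brain was compared first, to see how the set stood in glioma. C3, Cfb, Cfp, C4b and C3ar1 rose in vehicle-treated GL261-bearing mice and the 3 C1q genes fell, so that 5 of 9 genes were called higher and 3 lower. Changes were common in this comparison: 34.6% of the 9722 genes tested were called higher and 48.2% lower, so a call by itself sets a gene little apart here. Of all calls, 41.8% were higher as deposited and 50.4% after median-of-ratios scaling. The median log2 fold change was 0.45 over the 9 genes and -0.14 over all genes.

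C3, the component on which all pathways converge, measured 3.19, 3.76 and 3.69 RPKM in the naïve samples and 489, 787 and 409 RPKM with vehicle. Every tumor-bearing sample was thus far above every naïve one (log2 fold change 6.90 ± 0.21 SE, adjusted p = 4.67e-08). Cfb, the protease of the alternative pathway, was between 0.0196 and 0.0227 RPKM in naïve mice and at 43.4, 66.2 and 63.8 RPKM with vehicle. Its log2 difference of 5.82 ± 0.15 (adjusted p = 1.86e-08) depends on the constant of 1 RPKM added, because the naïve level is next to 0. Of the exonic bases of Cfb, 79.5% are shared with a readthrough gene on the same strand, Gm20547, which is listed at 0 in all samples. How the counting split such reads is not given in the sources used here, so the level of Cfb is uncertain.

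Cfp, properdin, measured 4.2, 4.51 and 5.03 RPKM in naïve mice against 128, 120.4 and 100.1 with vehicle (log2 fold change 4.39 ± 0.099, adjusted p = 1.25e-08). C4b, the classical pathway component downstream of C1q, rose from 4.03, 8.32 and 7.34 RPKM to 109, 98.3 and 87 (3.75 ± 0.21, adjusted p = 8.98e-07). C4b has a near-identical neighbor, C4a, so reads of the 2 genes may not be told apart; C4a was at most 0.0726 RPKM in this table. For both Cfp and C4b the groups did not overlap.

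The C1q genes ran the other way. C1qa measured 5556, 5642 and 5225 RPKM in naïve mice and 3191, 2479 and 2465 with vehicle (log2 fold change -1.02 ± 0.11, adjusted p = 5.46e-05). C1qb went from 3941, 4084 and 3920.2 RPKM to 2547, 2075 and 2034 (-0.85 ± 0.10, adjusted p = 7.73e-05). C1qc went from 2939, 3058 and 2808 RPKM to 1519.8, 1212 and 1155 (-1.19 ± 0.11, adjusted p = 1.76e-05). No vehicle sample reached a naïve one for any chain, and vehicle replicate 1 was the highest of its group for each. Rescaling by median ratios moved the median of all genes by 0.15 in this comparison and left C1qa at -0.85, C1qb at -0.68 and C1qc at -1.02, all still called.

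Of the receptors for the released fragments, C3ar1 measured 85.6, 82.6 and 81.6 RPKM in naïve mice and 141, 105 and 99.8 with vehicle (log2 fold change 0.45 ± 0.12, adjusted p = 0.00910). C5ar1 was not called as deposited, though it was after that rescaling: its vehicle samples, at 63.7, 38.8 and 56.1 RPKM, lay on both sides of the naïve ones, at 45.3, 46.1 and 42.4. Itgam and Itgb2 encode the chains of complement receptor 3. Itgam fell from 115 ± 4.32 (SD, n = 3) to 59.5 ± 7.16 RPKM (log2 fold change -0.95 ± 0.090, adjusted p = 1.95e-05), while Itgb2 rose from 292 ± 10.2 to 423 ± 34.1 (0.53 ± 0.073, adjusted p = 0.000190).

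Of 51 other complement genes, 16 were expressed enough to be tested and all 16 were called, 7 higher and 9 lower. Of all genes tested, 34.6% were called higher and 48.2% lower. Itgax, a chain of complement receptor 4, rose from 6.60 ± 0.496 to 134 ± 13.2 RPKM (log2 fold change 4.15 ± 0.083, adjusted p = 8.01e-09). Scarf1, a scavenger receptor that binds C1q, went from 0.142 ± 0.0635 to 14.7 ± 3.72 RPKM (3.76 ± 0.15, adjusted p = 1.68e-07), and Cd93 from 1.98 ± 0.839 to 29.2 ± 5.87 (3.36 ± 0.23, adjusted p = 2.68e-06). None of the 7 terminal components (Hc, C6 to C9) reached a mean of 1 RPKM in tumor-bearing samples of any table, the highest being C8g at 0.640 RPKM at 28 DPI.

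Cell type markers moved with these genes. All 10 microglia genes were called lower, their sum going from between 16494 and 17073 RPKM in naïve mice to between 1362 and 1987 with vehicle, and all 8 genes of infiltrating monocytes and macrophages were called higher (from 384 to 418 RPKM up to between 5079 and 5708). All 6 interferon gamma response genes were higher as well, with sums of 33.2 to 35.4 and of 793 to 1388 RPKM. Of 8 neutrophil genes tested, 5 were called lower and 1 higher, with sums of 282 to 425 RPKM in naïve mice and 64.2 to 198 with vehicle. Of 6 border-associated macrophage genes, 3 were called lower and 1 higher, and of 3 dendritic cell genes tested, 2 were called higher. The part of these markers in the complement differences was not tested.

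**Figure D2:**
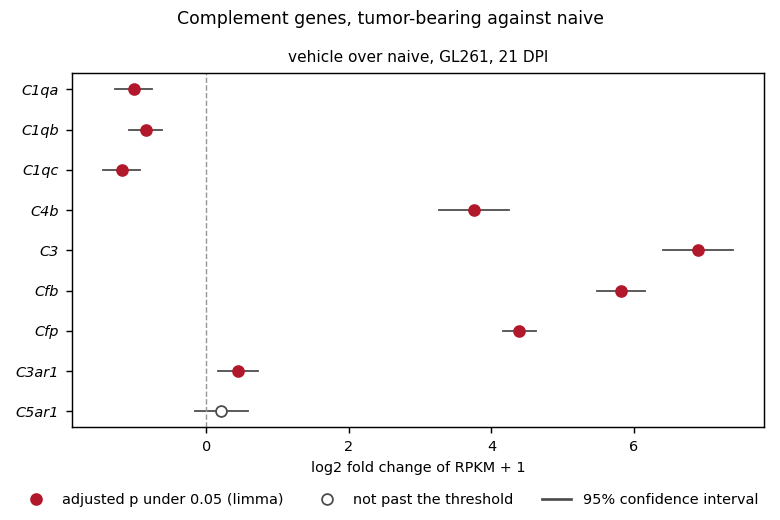
Log2 fold change of RPKM + 1 (x axis) of each complement gene (y axis) in vehicle-treated GL261-bearing over naïve mice, with 95% confidence intervals; 3 samples per group. Filled points passed the threshold: the C1q genes lie left of 0, the other genes right of it, and C5ar1 is open.

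The peptides were compared at 21 DPI to see whether the integrin-binding motif altered the set in GL261-bearing mice. None of the 9 genes was called between 7aaRGD and vehicle, where 0.148% of 9436 genes were called, and 2 passed an unadjusted p of 0.05, as did 13.5% of all genes. The median log2 fold change of the 9 genes was -0.16, with all 9 estimates below 0, beside 0.021 for all genes. C4b measured 68.2, 59.4 and 74.2 RPKM with 7aaRGD, below each vehicle sample (109, 98.3 and 87), a difference of -0.54 ± 0.13 (unadjusted p = 0.00200, adjusted p = 0.163). C3 measured 388, 389 and 339 RPKM, again under each vehicle sample, with a difference of -0.54 ± 0.21 (unadjusted p = 0.0314, adjusted p = 0.320). Neither passed the threshold over all genes.

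With the control peptide 7aaRAE against vehicle, no member was called (0% of all genes), none passed an unadjusted p of 0.05 (6.36% of genes) and the median was -0.092. C1qb, at 2012, 1978 and 1970.2 RPKM, lay below each vehicle sample, by -0.15 ± 0.10 (unadjusted p = 0.171, adjusted p = 0.763). Between 7aaRGD and 7aaRAE, which differ in the integrin-binding sequence and were given alike, again none was called (0%) and 1 passed the unadjusted threshold (5.51%). That gene was C4b, at 86.8, 85.4 and 112 RPKM with 7aaRAE, a difference of -0.48 with a 95% confidence interval from -0.77 to -0.20 (unadjusted p = 0.00389, adjusted p = 0.778). C1qa, C1qb and C1qc differed between the peptides by -0.0099, -0.0043 and -0.033, all 3 intervals lying between -0.30 and 0.26. Cfp differed by -0.0090 (-0.30 to 0.28), C3ar1 by -0.076 (-0.39 to 0.24) and C5ar1 by 0.12 (-0.31 to 0.55). C3 and Cfb differed by -0.47 (-0.95 to 0.016) and -0.32 (-0.66 to 0.029). For both, each 7aaRGD sample lay below each 7aaRAE sample, for Cfb narrowly (at most 56.9 against at least 57.1 RPKM), without a call. Over the 6 samples with either peptide, C1qa was between 2272 and 2876 RPKM, C1qb between 1836 and 2201, C1qc between 1077 and 1358 and Cfp between 94.4 and 128. Cfb was between 44.1 and 64.7 RPKM, C3ar1 between 85.6 and 111 and C5ar1 between 37.6 and 58.0. Taken over both peptides, all 7 ranges overlapped with those of the vehicle samples.

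Among the other complement genes, 1 of 16 was called between 7aaRGD and vehicle, where 0.148% of all genes were. It was Clu, clusterin, an inhibitor of the terminal complex, at 2.03 ± 0.0166 against 0.878 ± 0.0510 RPKM (log2 fold change 0.69 ± 0.097, adjusted p = 0.0384). The call was lost with a pseudocount of 0.1 (adjusted p = 0.0750), median-of-ratios scaling (0.0594), all named rows (0.0600) or the naïve samples in the fit (0.237), and without any 1 of 5 of the 6 samples compared (adjusted p from 0.0858 to 0.261). Itgam and Itgb2 differed by 0.079 ± 0.094 and -0.022 ± 0.085 between 7aaRGD and vehicle and were not called.

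In U87-MG-bearing nude mice, the same peptide comparisons called no member either: 0% of 9659 genes were called between 7aaRGD and vehicle, 0.0104% between 7aaRAE and vehicle and 0% between the peptides. Unadjusted, 1, 3 and 1 of the 9 genes passed 0.05, next to 3.77%, 7.72% and 3.38% of all genes. The median log2 fold change of the 9 genes was -0.14, 0.053 and -0.19. C5ar1 measured 40.3, 46.2 and 41.2 RPKM with vehicle, 48.0, 81.1 and 60.4 with 7aaRGD and 70.4, 62.7 and 69.1 with 7aaRAE. Every sample of both peptides was above every vehicle sample (0.53 ± 0.16, unadjusted p = 0.0104, adjusted p = 0.941; and 0.65 ± 0.16, unadjusted p = 0.00322, adjusted p = 0.335), and the 2 peptides differed by -0.12 (95% confidence interval -0.49 to 0.25). Fitted with only the 7aaRAE and vehicle samples, C5ar1 passed the threshold for 7aaRAE (adjusted p = 0.0472).

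C3 was at 30.6, 19.6 and 28.2 RPKM with vehicle and at 18.7, 13.8 and 16.7 with 7aaRAE (-0.63 ± 0.19, unadjusted p = 0.00825, adjusted p = 0.477). Cfp stood at 16.7, 14.9 and 22.8 RPKM with vehicle and at 10.5, 11.9 and 13.8 with 7aaRAE (-0.54 ± 0.18, unadjusted p = 0.0146, adjusted p = 0.519). With 7aaRGD it was at 14.9, 14.6 and 20.6 RPKM, above each 7aaRAE sample (0.43, interval 0.026 to 0.83, unadjusted p = 0.0394, adjusted p = 1.00). The C1q genes, at 5605 to 8087 RPKM (C1qa), 3299 to 4657 (C1qb) and 2372 to 3324 (C1qc) over all 9 samples, overlapped between every pair of groups. C3ar1 was between 87.9 and 195 RPKM, 1 sample of 7aaRGD and 1 of 7aaRAE (195 and 171) standing above the others. Between the peptides the C1q chains each differed by -0.19, with intervals that lay between -0.52 and 0.14, and C4b by -0.63 with an interval from -1.33 to 0.059. C3, Cfb and C3ar1 differed by 0.27 (-0.15 to 0.69), -0.35 (-0.96 to 0.26) and -0.12 (-0.79 to 0.54). Cfb was between 0.554 and 2.88 RPKM in all 9 samples, so differences there rest on low values. C4a reached 1.92 to 4.69 RPKM in these mice, against at most 0.194 RPKM in both other tables, and none of 16 other complement genes tested was called in any of the 3 comparisons.

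**Figure D3:**
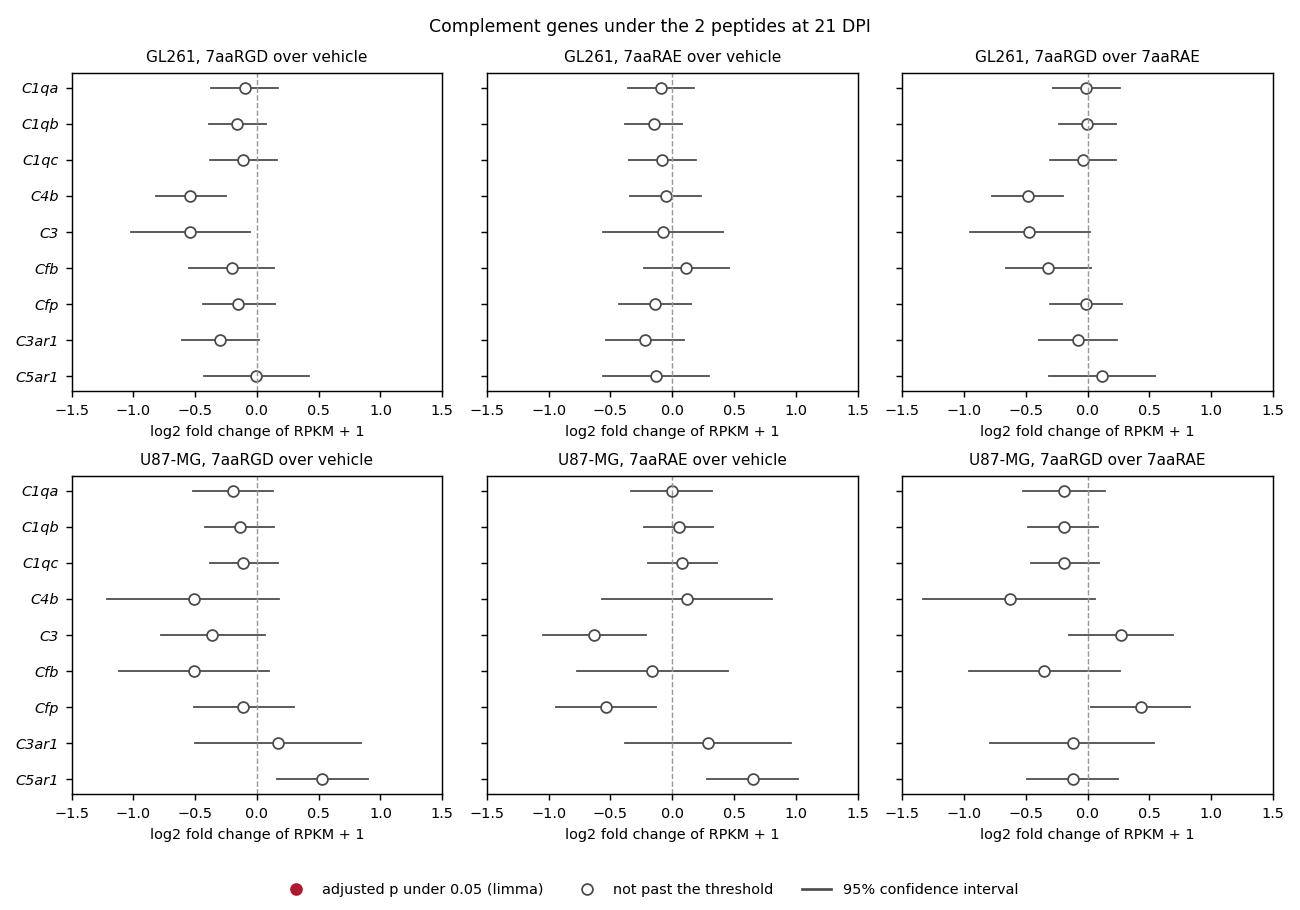
Log2 fold change of RPKM + 1 (x axis) of each complement gene (y axis) between the peptides and vehicle and between the peptides, in GL261-bearing C57BL/6 mice (top) and U87-MG-bearing nude mice (bottom), with 95% confidence intervals; 3 samples per group. All points are open, since none passed the threshold; C4b and C3 lie furthest left for 7aaRGD in GL261, and C5ar1 furthest right for both peptides over vehicle in U87-MG.

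At 28 DPI, the question was how PD-1 blockade, alone or with 7aaRGD, bears on the set. C3, Cfp and Cfb rose with anti-PD-1 and with the combination, and with the combination C1qb and C1qc fell slightly. With 7aaRGD alone, no member was called (0.647% of 9732 genes) and none passed an unadjusted p of 0.05 (14.6% of genes), with a median log2 fold change of 0.061 over the 9 genes. Anti-PD-1 against vehicle called 3 of 9 members higher, where 10.8% of all genes were called higher. It called no member lower, where 1191 of the 9732 genes were called lower. The combination against vehicle called 3 higher (17.5% of all genes) and 2 lower (25.8%), and against 7aaRGD also 3 higher (13%) and 2 lower (23.6%). The median log2 fold change of the 9 genes was 0.35, 0.13 and -0.11 in these comparisons, beside -0.0050, -0.049 and -0.068 over all genes. C3, Cfp and Cfb were the 3 and C1qb and C1qc the 2 in both. Median-of-ratios scaling moved the share of calls that were higher from 40.5% to 52.8% for the combination over vehicle and from 35.6% to 52.5% over 7aaRGD. The comparisons share samples and are not independent of each other.

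C3 measured 169, 249, 163 and 203 RPKM with vehicle and 189, 201, 279 and 142 with 7aaRGD. It was at 415, 629 and 586 RPKM with anti-PD-1 and at 1024, 692 and 715 with the combination. Both anti-PD-1 groups were above all samples without the antibody (log2 fold change 1.46 ± 0.22, adjusted p = 0.000798, for anti-PD-1; 2.04 ± 0.22, adjusted p = 1.79e-05, for the combination; 2.01 ± 0.22, adjusted p = 4.53e-05, for the combination over 7aaRGD). The 3 combination samples also lay above the 3 anti-PD-1 samples, but that difference of 0.57 ± 0.24 was not called (unadjusted p = 0.0314, adjusted p = 0.280).

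Cfp measured 48.8, 35.7, 60.8 and 55.9 RPKM with vehicle and 56.3, 54.6, 54.1 and 48.9 with 7aaRGD. With anti-PD-1 the samples spread widely, at 154, 95 and 67.4 RPKM, and with the combination they were at 169, 168 and 139. The rise was 1.00 ± 0.22 (adjusted p = 0.00667) for anti-PD-1, 1.66 ± 0.22 (adjusted p = 7.87e-05) for the combination over vehicle and 1.55 ± 0.22 (adjusted p = 0.000246) for the combination over 7aaRGD. The combination overlapped with anti-PD-1 (0.66 ± 0.24, unadjusted p = 0.0151, adjusted p = 0.216).

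Cfb followed the same order at lower levels: 19.0, 23.9, 17.8 and 18.8 RPKM with vehicle, 15.2, 26.3, 21.1 and 16.7 with 7aaRGD, 30.7, 39.0 and 36.5 with anti-PD-1 and 46.4, 33.0 and 37.9 with the combination. Again no sample with the antibody reached down to one without it (0.80 ± 0.17, adjusted p = 0.00494; 0.94 ± 0.17, adjusted p = 0.000729; and 0.96 ± 0.17, adjusted p = 0.000918, in the order above). C4b, by contrast, overlapped between groups, at 86.4, 163, 75.2 and 105 RPKM with vehicle, 169, 114, 219 and 201 with 7aaRGD, 80.0, 191 and 311 with anti-PD-1 and 187, 140.4 and 288 with the combination. The combination differed from vehicle by 0.93 ± 0.40 (unadjusted p = 0.0376, adjusted p = 0.0779), which passed the threshold when only those 2 groups were fitted (adjusted p = 0.0287) and without vehicle replicate 2 (adjusted p = 0.0424).

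C1qb measured 4452, 4663, 3955 and 3886 RPKM with vehicle, 3943, 4106, 4635 and 4465 with 7aaRGD, 3551, 3419.8 and 3776 with anti-PD-1 and 3279, 3296 and 3734 with the combination. The combination was below all vehicle and 7aaRGD samples (-0.30 ± 0.086, adjusted p = 0.0122, and -0.32 ± 0.086, adjusted p = 0.0112). Anti-PD-1 alone also lay below vehicle, at -0.24 ± 0.086, without a call (unadjusted p = 0.0148, adjusted p = 0.0591). It was called with a pseudocount of 5 (adjusted p = 0.0496), a filter at a mean of 5 RPKM (0.0447) or without vehicle replicate 4 (0.0482).

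C1qc measured 2537, 2673, 2309.5 and 2321 RPKM with vehicle, 2459.5, 2268, 2523 and 2420.0 with 7aaRGD, 1958, 2214 and 2328 with anti-PD-1 and 1926, 1963 and 2135 with the combination. It was -0.29 ± 0.078 lower with the combination than with vehicle (adjusted p = 0.00886) and -0.27 ± 0.078 lower than with 7aaRGD (adjusted p = 0.0169), and anti-PD-1 alone gave -0.18 ± 0.078 (unadjusted p = 0.0344, adjusted p = 0.107). These falls of C1qb and C1qc were not called after rescaling by median ratios (adjusted p from 0.0758 to 0.145) or without the filter on low values (adjusted p from 0.0899 to 0.175).

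C1qa was called in no comparison at 28 DPI. It averaged 4756 ± 506 RPKM (SD, n = 4) with vehicle, 4946 ± 268 (n = 4) with 7aaRGD, 4342 ± 313 (n = 3) with anti-PD-1 and 4346 ± 241 (n = 3) with the combination. The receptors showed no call either. C3ar1 was between 79.8 and 146 RPKM over all 14 samples and C5ar1 between 40.6 and 86.3. Adding 7aaRGD to anti-PD-1 called no member (0.0411% of all genes), with 2 passing an unadjusted p of 0.05 (15% of genes), which were C3 and Cfp. The interaction term, which tests whether both agents together differed from their added single effects, called none (0%), with 1 unadjusted (8.16%). It was C5ar1, at -0.79 ± 0.31 (unadjusted p = 0.0235, adjusted p = 0.588): 40.6, 46.8, 64.2 and 59.2 RPKM with vehicle, 83.9, 66.0, 46.5 and 86.3 with 7aaRGD, 66.3, 72.0 and 61.6 with anti-PD-1 and 42.9, 67.7 and 44.7 with the combination.

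**Figure D4:**
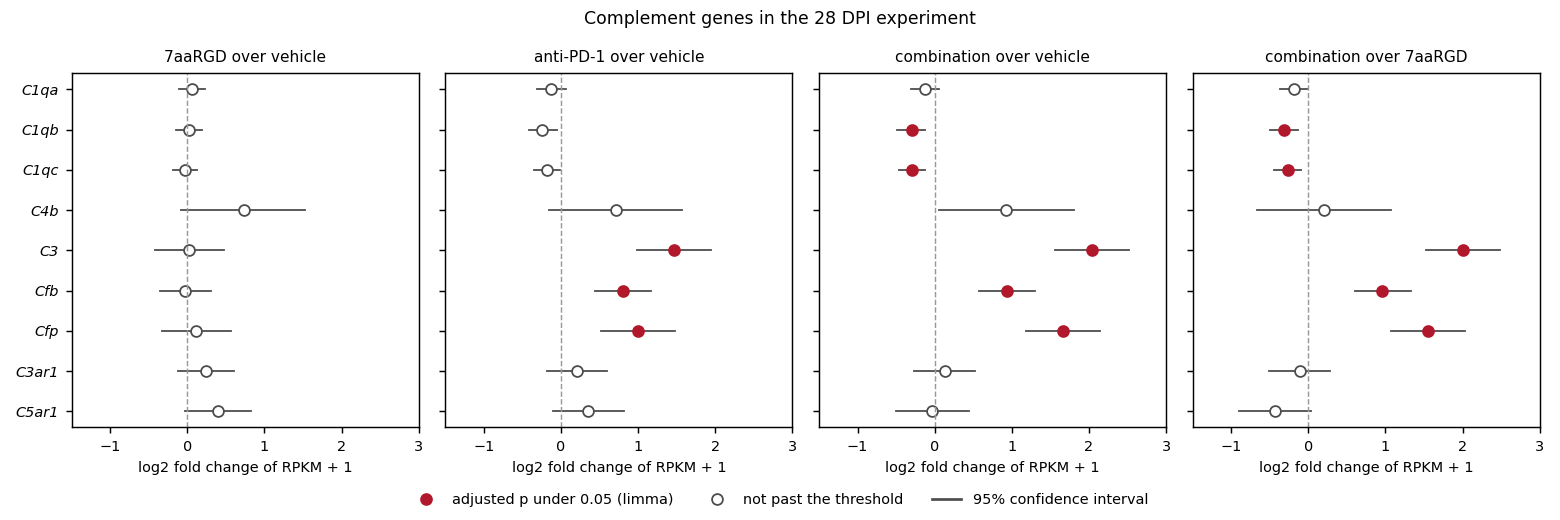
Log2 fold change of RPKM + 1 (x axis) of each complement gene (y axis) for 7aaRGD, anti-PD-1 and the combination over vehicle and for the combination over 7aaRGD at 28 DPI, with 95% confidence intervals; groups of 4 samples without and 3 with the antibody. Filled points passed the threshold: C3, Cfb and Cfp lie right of 0 in the 3 panels with the antibody, and C1qb and C1qc left of 0 in those with the combination.

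Among the other complement genes, 17 could be tested at 28 DPI. Anti-PD-1 called 5 higher (10.8% of all genes) and 1 lower (1191 of the 9732 genes). The combination over vehicle called 8 higher (17.5% of all genes) and 5 lower (25.8%). Over 7aaRGD, the combination called 5 higher (13%) and 4 lower (23.6%), while 7aaRGD alone called none (0.647%). Scarf1 went from 6.72 ± 1.94 RPKM with vehicle to 20.4 ± 6.36 with anti-PD-1 (log2 fold change 1.47 ± 0.28, adjusted p = 0.00305) and 26.4 ± 0.636 with the combination (1.86 ± 0.28, adjusted p = 0.000207). The proteases that work with C1q rose as well: C1ra from 14.3 ± 2.43 to 27.0 ± 8.08 and 34.0 ± 5.36 RPKM (0.85 ± 0.18, adjusted p = 0.00497, and 1.20 ± 0.18, adjusted p = 0.000181), and C1s1 from 0.530 ± 0.161 to 1.59 ± 0.494 and 3.81 ± 1.95 RPKM (0.75 ± 0.24, adjusted p = 0.0367, and 1.56 ± 0.24, adjusted p = 0.000206). Both have close copies, C1rb and C1s2, with which reads may be shared. C1s1 with anti-PD-1 lost its call in several alternatives, among them each of 5 left-out samples (adjusted p from 0.0559 to 0.149).

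Calr, calreticulin, a partner of C1q on phagocytes, rose with anti-PD-1 from 304 ± 42.1 to 469 ± 18.2 RPKM (0.63 ± 0.13, adjusted p = 0.00448). Serping1, the inhibitor of the C1 proteases, was called with the combination, at 6.52 ± 2.48 against 2.40 ± 1.28 RPKM (1.16 ± 0.43, adjusted p = 0.0420), although the groups overlapped and 5 of 7 left-out samples ended the call (adjusted p from 0.0767 to 0.159). Against 7aaRGD, the combination was higher for Scarf1 (1.97 ± 0.28, adjusted p = 0.000246), C1s1 (1.65 ± 0.24, adjusted p = 0.000246) and C1ra (1.19 ± 0.18, adjusted p = 0.000311). It was lower for the collectin Colec12, at 0.274 ± 0.0549 against 1.31 ± 0.324 RPKM (-0.85 ± 0.27, adjusted p = 0.0251), which rests on low values. That call was lost with a pseudocount of 5 (adjusted p = 0.0732) and with any 1 of 5 samples left out (adjusted p from 0.0514 to 0.0704). Itgb2 rose with anti-PD-1 (0.45 ± 0.069, adjusted p = 0.000748) and with the combination (0.54 ± 0.069, adjusted p = 5.14e-05), and Itgam with the combination (0.38 ± 0.099, adjusted p = 0.00740).

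Markers moved with these genes too. Of 8 genes of infiltrating monocytes and macrophages, 5 were called higher with anti-PD-1 and 5 with the combination, the sum being 2639.5 to 3106 RPKM with vehicle, 3943 to 5835 with anti-PD-1 and 5662 to 7561 with the combination. Of 10 microglia genes, 3 and 7 were called higher, with sums of 1572 to 2246 RPKM with vehicle, 1806 to 2598 with anti-PD-1 and 2418 to 2572 with the combination. Of 6 interferon gamma response genes, 5 were called higher in each, with sums of 372 to 649.7 RPKM with vehicle, 804 to 961 with anti-PD-1 and 856 to 1094 with the combination. The summed level of 5 NK cell genes was 1.76 to 8.02 RPKM with vehicle, 1.49 to 45.8 with anti-PD-1 and 16.9 to 60.2 with the combination, where 3 of the 4 that could be tested were called. Over 7aaRGD, the combination called 5 of 8 monocyte, 3 of 10 microglia, 6 of 6 interferon and all 4 tested NK cell genes higher. Of 6 dendritic cell genes and 4 endothelial genes, 2 each could be tested, and both of each were called higher with anti-PD-1, with the combination over vehicle and with the combination over 7aaRGD. The dendritic cell sum was 1.21 to 2.86 RPKM with vehicle, 1.11 to 3.28 with 7aaRGD, 4.04 to 17.4 with anti-PD-1 and 12.4 to 16.6 with the combination. The endothelial sum was 4.06 to 10.3, 5.37 to 8.79, 9.26 to 21.4 and 14.1 to 20.9 RPKM in the same order. In the other direction, the combination called 1 of 4 border-associated macrophage genes, 1 of 8 neutrophil genes and the 1 neuron gene tested lower. These counts were the same over vehicle and over 7aaRGD. The border-associated macrophage sum was 126 to 178 RPKM with vehicle and 64.7 to 149 with the combination. The part of all these markers in the changes of the complement genes was not tested.

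The shares of the 3 C1q genes in their summed RPKM differed by a few percentage points between groups, as the plot of shares shows. C1qa took 43.7 to 44.7% in naïve mice and 43.0 to 44.7% in the GL261-bearing samples, whose ranges overlapped. C1qb made up 31.7 to 32.8% in naïve mice and 34.1 to 36.0% in GL261-bearing samples, and C1qc 23.5 to 23.9% and 20.4 to 21.6%, without overlap. At 28 DPI the C1qa share was 40.7 to 42.3% with vehicle and 42.1 to 42.7% with 7aaRGD, which overlapped. With anti-PD-1 it was 42.7 to 43.5% and with the combination 44.0 to 44.9%, both apart from vehicle. In U87-MG-bearing mice C1qa took 49.6 to 52.1% of the sum and C1qb 27.6 to 29.3%. The shares are descriptions and were not tested.

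**Figure D5:**
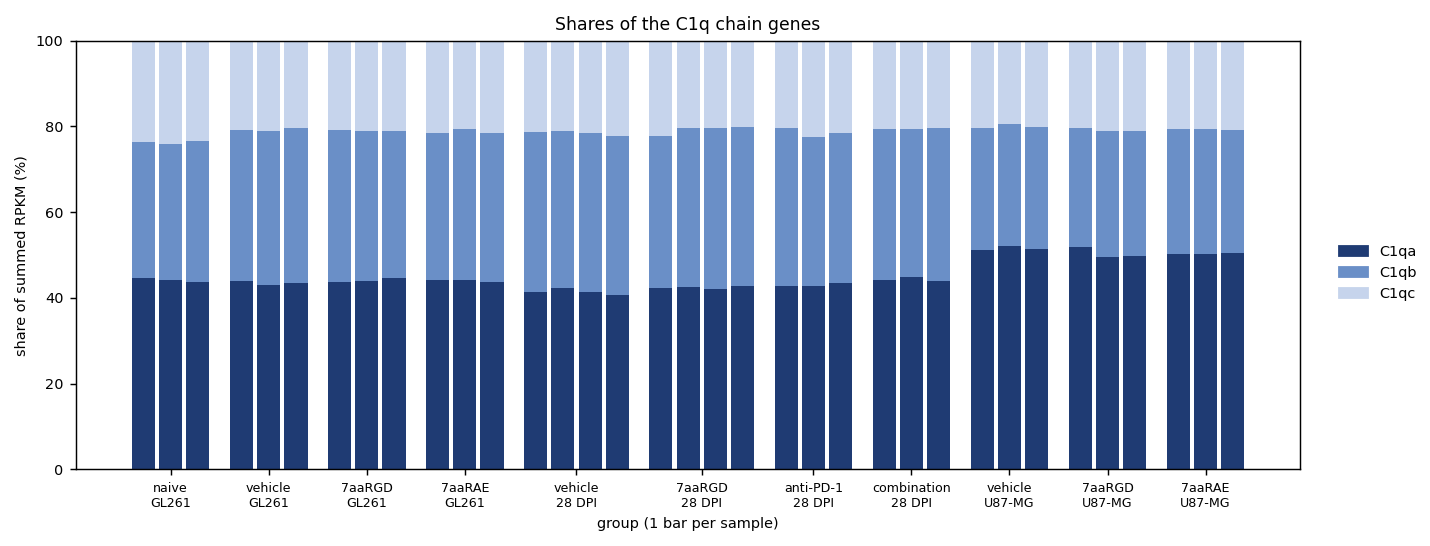
Share of the summed RPKM of C1qa, C1qb and C1qc taken by each gene (y axis, percent) in every sample (bars), grouped by treatment and experiment. C1qa takes 40.7 to 44.9% in the GL261 table and the 28 DPI table and 49.6 to 52.1% in the U87-MG table.

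Across tumor-bearing samples, the genes most like each C1q gene among 8907 expressed genes were other C1q genes. Likeness was the lowest of the Pearson correlations within the 3 tables (9, 14 and 9 samples), a description that also holds the differences between treatments. It was 0.91 for C1qa with C1qb, 0.90 for C1qb with C1qc and 0.84 for C1qa with C1qc. For Cfb the closest were Ccl5, a chemokine (0.91), Tap1, a peptide transporter of antigen presentation (0.87), and Parp10 (0.85). For Cfp the closest was Gsn, gelsolin (0.70), for C3 Sdccag8 (0.74), for C3ar1 Dhrs3 (0.73), for C5ar1 Eif4a1 (0.67) and for C4b Dmrtb1 (0.71). Within the set, C3 and Cfb correlated at 0.56, 0.94 and 0.36 in the GL261, 28 DPI and U87-MG tables, and Cfp and C1qc at 0.42, -0.95 and -0.62.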

How the data were processed

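RNA of CD11b+ cells was measured in 35 samples of 11 groups; 5 further labelled samples were not analysed here. The authors used Trimmomatic, STAR with mm10 and HTSeq 0.11.1 for trimming, alignment and gene counts, per the labels and methods. The deposited values were read as RPKM plus a constant of 2, which was subtracted: rows without signal hold 2, and the rest weighted by exonic length sums to nearly the same in every sample. The authors' normalization is not given in the sources used here. Per sample, 3.13% to 8.78% of values lay under the constant, and in the GL261 and 28 DPI tables the smallest component of the differences between replicates had 7.51% and 7.68% of the size of the next (75.3% for U87-MG). The tables have no read counts, so depth is unknown and count tests were not used. The study's NOISeq test was not run.

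RPKM below 0 were set to 0 for the tests. The test was limma 3.58.1 (R 4.3.3, lmFit and eBayes with trend) on the log2(RPKM + 1) scale, over GENCODE M21 protein-coding genes averaging 1 RPKM or more across the fit (98.7% of symbols matched the annotation), with Benjamini-Hochberg adjustment over all genes tested and a threshold of 0.05. The tumor-bearing groups of a table were fitted together, and naïve mice with vehicle alone. The 3 U87-MG columns of a treatment share 1 name and carry no replicate number. All 9 members are named, with fold changes where the unadjusted p was under 0.05 (and between the related peptides, with their intervals); of 51 other complement genes, the up to 4 with the largest change among those called in each comparison (1 of them is not reported here), and Itgam and Itgb2. The members and lists were chosen with earlier results of these data known. The test was tried on simulated data with independent noise for each gene and sample, and the outcome is not reported here. Such data do not hold the nearly missing component of the replicate differences, so the trial does not cover it. Alternatives were pseudocounts of 0.1 and 5, no filter or a mean of 5 RPKM, median-of-ratios scaling, all named rows, only the groups compared, naïve samples added, a replicate block, leaving out each sample and a log2 fold change of at least 1. Promoter windows are from RefSeq (GRCm38.p6).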

Additional observations from a re-analysis of the deposited data

How the results depend on the processing

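The number of members called was recomputed 217 times over the 13 comparisons and was within 1.5 times the main count in 209. In 9 of the comparisons the main count was 0, and there a recomputed 0 counted as within it. Requiring a log2 fold change of at least 1 ended the calls of C1qb and C3ar1 for vehicle over naïve. It left 1 member called for anti-PD-1 over vehicle, 2 for the combination over vehicle and 2 for the combination over 7aaRGD, by construction. Without a filter on low values, and with median-of-ratios scaling, 3 members were called in each of the last 2 comparisons, C1qb and C1qc being lost; the cause was not tested. Fitting only the 2 groups compared called 1 member, C5ar1, for 7aaRAE over vehicle in U87-MG-bearing mice (adjusted p = 0.0472). Leaving out 1 sample at a time gave 8 to 9 called members for vehicle over naïve, 3 to 4 for anti-PD-1, 4 to 6 for the combination over vehicle and 4 to 6 for the combination over 7aaRGD, and 0 in each of the other 9 comparisons. C1qb lost its call without combination replicate 1 (adjusted p = 0.0505 over vehicle), and C1qc over 7aaRGD without combination replicate 1 or 2 (0.0670 and 0.0550). C1qb with anti-PD-1 gained one without vehicle replicate 4 (0.0482).

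Residual correlations of same-numbered samples exceeded 0.1 for 1 of 9 pairs (21 DPI) and for 3 of 19 (28 DPI). They ran from -0.772 to 0.118 at 21 DPI and from -0.499 to 0.366 at 28 DPI, so some were clearly negative. Values already adjusted for the number would also give low or negative correlations, so a pairing cannot be told from this check. With the replicate block, 8 members were called for vehicle over naïve, 3 for anti-PD-1 5 for the combination over vehicle and 5 for it over 7aaRGD, as without it; among the other complement genes it ended the calls of Clu, of C1s1 with anti-PD-1 and of Serping1. No paired analysis was possible for U87-MG because the columns carry no number. Because a component of the replicate differences was nearly missing, a fit with 1 residual degree of freedom less was chosen after seeing the data. It changed no member's call and ended those of Clu, of C1s1 with anti-PD-1 and of Serping1. Of 78 named fold changes, 52 kept the same status, called or not called, in every alternative. Those that were never called, such as Itgam for 7aaRGD over vehicle, count among the 52. Of 1287 recomputed fold changes, 67 lost a call, 8 gained one and none reversed one. The unknown depth limits low genes most, above all Cfb in naïve and U87-MG-bearing mice.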
